A study of Arabidopsis thaliana with 8 samples.

Results

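*BGLU28*, *BGLU19* and *BGLU47* encode β-glucosidases, the enzymes that release a sugar from glucosides such as glucosinolates, monolignol glucosides and hormone glucosides. They were chosen by values of these same arrays, because the study lists them among the genes on which MeJA acted in opposite directions in *Ler* and *hy5-1* in darkness. The array's annotation pairs each of them with a single probe set of its own, so that 3 of the 13286 genes with such a probe set are described here. The probe sets are 267389_at for *BGLU28* (AT2G44460), 256814_at for *BGLU19* (AT3G21370) and 254371_at for *BGLU47* (AT4G21760). Whole seedlings of wild-type *Ler* (Landsberg *erecta*) and of *hy5-1*, which carries a mutant allele of the bZIP transcription factor gene *HY5* in that background, grew for 4 days in darkness or in continuous far-red (FR) light of 1.5 μmol m-2 s-1. The medium held either no MeJA or 50 μM MeJA, the methyl ester of the defense hormone jasmonic acid. Each of the 8 conditions was read on 1 Affymetrix ATH1 array, which carries sets of short probes for each transcript, so a ratio rests on 1 pair of arrays with no replicate, and precision is limited by how few arrays there are. In the annotation used, which does not list 8730 of the 22746 probe sets, none is named for *HY5* alone. The genotype was therefore not checked on the mutated gene.

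In plants, glucosides serve as stores that are inert until a β-glucosidase removes the sugar. Jasmonates are known for inducing such defenses in Arabidopsis, and HY5 for driving seedling development in light. *BGLU28* is known in Arabidopsis for breaking down glucosinolates when sulfur is short. *BGLU19* belongs by sequence to the group that includes the ER body enzymes, which are stored in compartments drawn from the endoplasmic reticulum, and *BGLU47* to the group of the monolignol glucosidases *BGLU45* and *BGLU46*.

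The deposited values are on a log scale, and within each light the 4 arrays of a probe set have a median of 0. A value is therefore a difference from the other arrays of the same light. It gives no expression level, no comparison of FR light with darkness and no way to check the tissue by its markers. The log base is not stated and was taken as 2. With 4 arrays, this centring also makes the middle values of a light equal and opposite in sign, which is a property of the table and not of the gene. A gene was called up-regulated at a ratio of at least 2-fold and down-regulated at 0.5-fold or less, the limits that the study used. Such calls were common, and the counts below are set beside the share of all 22746 probe sets called.

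In darkness, *BGLU28* and *BGLU47* lay far apart between the genotypes only without MeJA, and *BGLU19* lay apart both without and with it. As whole seedlings were used, fewer cells that express a gene and less of its RNA per cell cannot be told apart. The *BGLU28* values were -2.87 in untreated *Ler*, 2.66 in untreated *hy5-1*, -0.11 in *Ler* with MeJA and 0.11 in *hy5-1* with MeJA. The untreated arrays were thus the lowest and the highest, and the MeJA arrays lay between them. The *BGLU47* values ran the other way, at 1.56 in untreated *Ler*, -2.75 in untreated *hy5-1*, -0.21 in *Ler* with MeJA and 0.21 in *hy5-1* with MeJA. For this gene as well, the genotypes lay far apart without MeJA and close together with it. The *BGLU19* values were 1.23 in untreated *Ler*, -1.23 in untreated *hy5-1*, -1.27 in *Ler* with MeJA and 1.26 in *hy5-1* with MeJA. Here the order of the genotypes was turned round, with *Ler* above *hy5-1* without MeJA and below it with MeJA. In none of the 3 genes did a second dark array equal the lowest one, but centred values cannot show whether a low array lay near background. The same limit holds for the dark ratios below. From the lowest to the highest dark array the span was 5.52 for *BGLU28*, 4.31 for *BGLU47* and 2.53 for *BGLU19*, wider than in 99.5%, 97.8% and 83.4% of all probe sets.

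**Figure D1:**
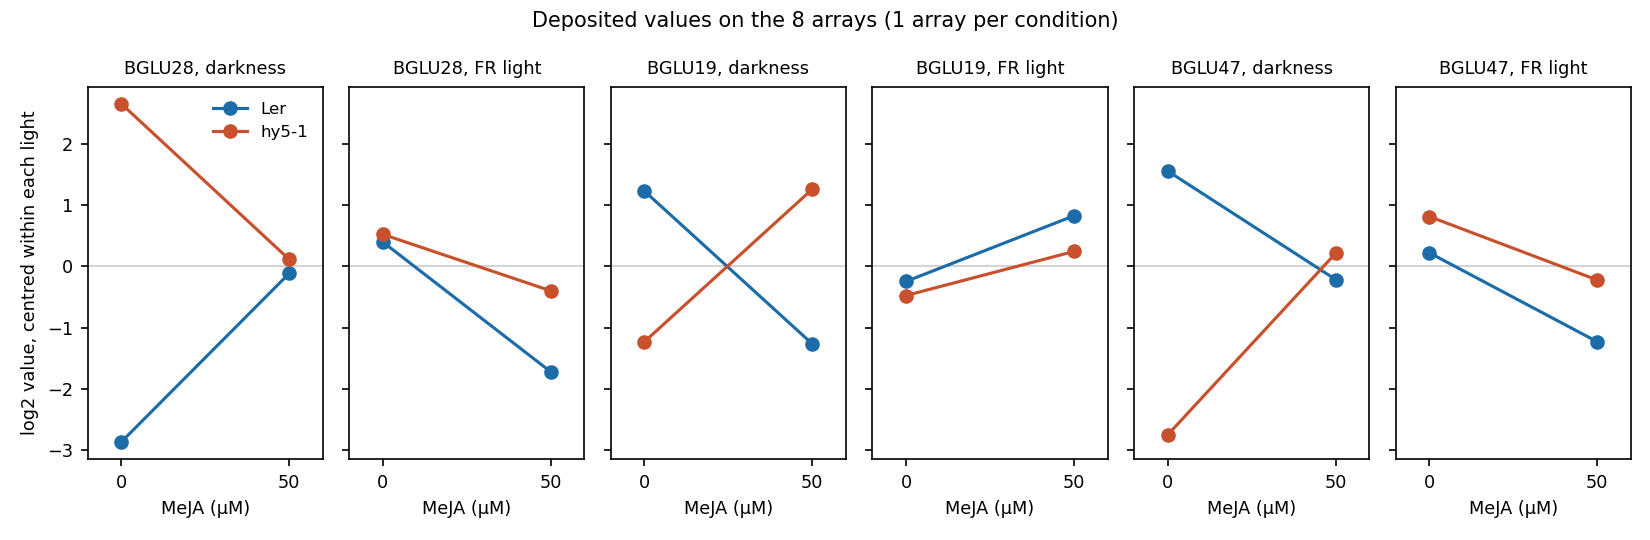
Deposited values, read as log2, of *BGLU28*, *BGLU19* and *BGLU47*, centred within each light, at 0 and 50 μM MeJA in darkness and FR light. Each point is 1 array and lines join the arrays of *Ler* (blue) or *hy5-1* (orange). The lines converge or cross in darkness and run the same way in FR light.

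The dark MeJA ratios are those that chose the genes, so they are a description. In *Ler*, *BGLU28* was 6.74-fold higher with MeJA (log2 ratio of 2.75), which made it the 1 up-regulated gene of the 3, beside 11.2% of all probe sets. *BGLU19* was 5.65-fold lower (-2.50) and *BGLU47* 3.42-fold lower (-1.77), 2 down-regulated genes beside 13.1% of probe sets. In *hy5-1* the signs were reversed. *BGLU28* was 5.83-fold lower with MeJA (-2.54), 1 gene beside 16.1% of probe sets, and *BGLU19* was 5.63-fold higher (2.49) and *BGLU47* 7.81-fold higher (2.97), 2 genes beside 12.2%. Of all probe sets, 3.54% were called in opposite directions in the 2 dark ratios, a share that includes these 3. The member nearest to the limit was *BGLU47*, with its ratio of -1.77 in *Ler*. Among the other β-glucosidase genes on the array, those nearest to it from outside were *BGLU33*, which encodes an enzyme that frees abscisic acid from its glucose ester, at 0.71 in *Ler* and -0.97 in *hy5-1*, *BGLU24* at 0.53 and -0.97, and *BGLU27* at 0.64 and -1.77.

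FR light is the setting that the choice of the genes did not use, and there the MeJA ratio of each gene had the same sign in both genotypes. *BGLU28* and *BGLU47* were lower with MeJA in *Ler* and in *hy5-1*, and *BGLU19* was higher in both. The *BGLU28* values were 0.40 in untreated *Ler*, -1.72 in *Ler* with MeJA, 0.52 in untreated *hy5-1* and -0.40 in *hy5-1* with MeJA. Both MeJA arrays lay below both untreated arrays. The ratio was a 4.35-fold decrease in *Ler* (log2 ratio of -2.12, with 3.76% of probe sets below it) and a 1.89-fold decrease in *hy5-1* (-0.92, with 14.8% below it), the latter short of the limit. The *BGLU47* values were 0.22 in untreated *Ler*, -1.23 in *Ler* with MeJA, 0.81 in untreated *hy5-1* and -0.22 in *hy5-1* with MeJA, and the MeJA arrays again lay below the untreated ones. *BGLU47* was 2.74-fold lower in *Ler* (-1.45) and 2.05-fold lower in *hy5-1* (-1.04). The last of these was just past the limit and fell short of it after quantile normalization (-0.99) and after median scaling (-0.97). The *BGLU19* values were -0.25 in untreated *Ler*, 0.83 in *Ler* with MeJA, -0.48 in untreated *hy5-1* and 0.25 in *hy5-1* with MeJA, so both MeJA arrays lay above both untreated arrays. *BGLU19* was 2.10-fold higher in *Ler* (1.07) and 1.65-fold higher in *hy5-1* (0.72).

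Counted by call, 1 of the 3 genes was up-regulated and 2 were down-regulated by MeJA in FR-grown *Ler*, beside 12.8% and 11.2% of all probe sets. In FR-grown *hy5-1*, 1 was down-regulated, beside 13.4%. None was called in opposite directions in *Ler* and *hy5-1* under FR light, as 3.58% of probe sets were. The difference between the MeJA ratios of *hy5-1* and *Ler* under FR light was 1.20 for *BGLU28*, 0.42 for *BGLU47* and -0.35 for *BGLU19*, on the log2 scale and with no test. For comparison, the same differences in darkness, which the choice fixed, were -5.30, 4.74 and 4.99. The span over the 4 FR arrays was 2.25 for *BGLU28*, 2.05 for *BGLU47* and 1.30 for *BGLU19*, wider than in 81.4%, 79.2% and 66.2% of all probe sets.

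A linear model in limma over the 4 FR arrays, with genotype and MeJA as additive terms, gave a mean log2 difference with MeJA of -1.25 for *BGLU47* (standard error 0.23, adjusted p = 0.28), 0.90 for *BGLU19* (standard error 0.22, adjusted p = 0.30) and -1.52 for *BGLU28* (standard error 0.42, adjusted p = 0.32). Each direction was seen in 2 of 2 pairs of arrays. None of the 3 passed an adjusted p of 0.05, nor did any other of the 22746 probe sets (0%), although 3557 had an unadjusted p under 0.05. *BGLU47* (unadjusted p = 0.020) and *BGLU19* (unadjusted p = 0.038) were among these in the limma model and *BGLU28* (unadjusted p = 0.0505) was not. The model has 1 residual degree of freedom, so it sets a high bar for any probe set.

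**Figure D2:**
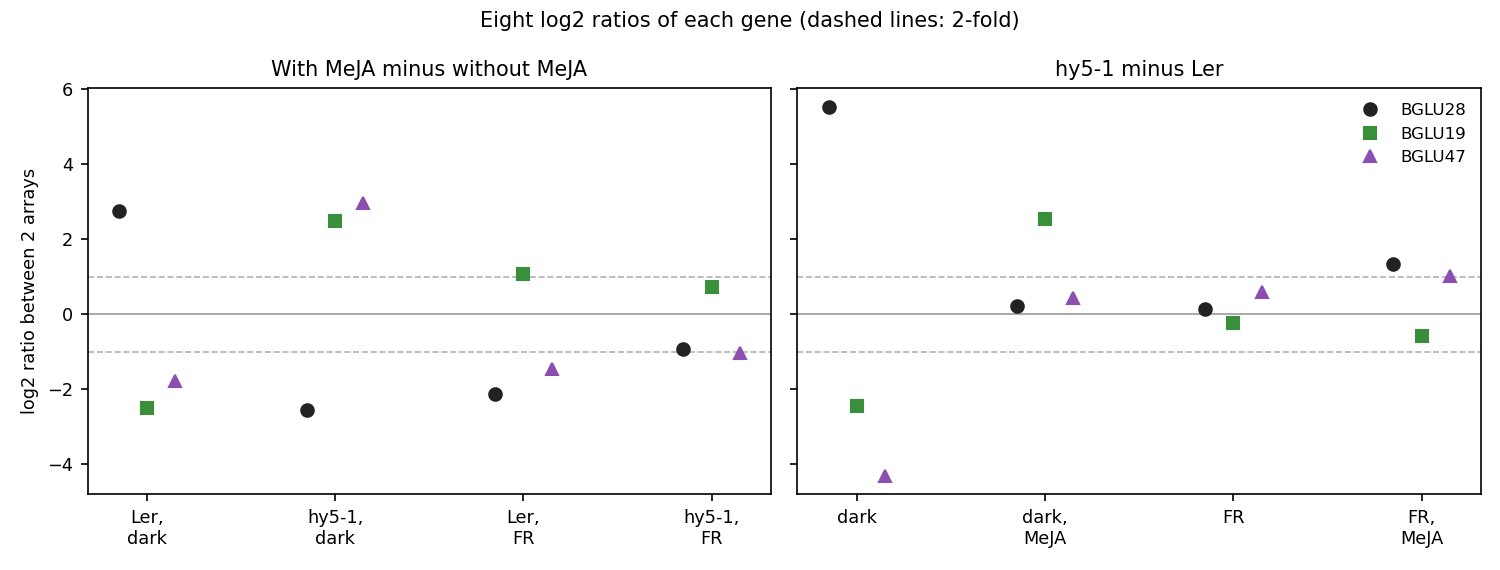
The 8 log2 ratios between arrays of *BGLU28* (circles), *BGLU19* (squares) and *BGLU47* (triangles), with MeJA ratios on the left and *hy5-1* minus *Ler* ratios on the right; dashed lines mark 2-fold. The largest ratios are in darkness, led by 5.52 for *BGLU28* and -4.31 for *BGLU47* in untreated seedlings.

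The comparison of *hy5-1* with *Ler* uses the same arrays as the MeJA ratios, so its dark values follow in part from the choice of the genes. In untreated dark seedlings, *BGLU28* was 46.0-fold higher in *hy5-1* (log2 ratio of 5.52), and only 1 of the other probe sets on the array had a higher ratio. It was the 1 gene called up of the 3, beside 9.64% of probe sets. *BGLU47* was 19.8-fold lower in *hy5-1* (-4.31), with 28 probe sets below it, and *BGLU19* 5.50-fold lower (-2.46), with 480 below it, 2 genes beside 7.68%. With MeJA in darkness, *BGLU28* (0.23) and *BGLU47* (0.43) were under 2-fold between the genotypes. *BGLU19* was then 5.78-fold higher in *hy5-1* (2.53), 1 gene beside 9.00% of probe sets. The opposite dark responses of *BGLU28* and *BGLU47* thus lay in the untreated arrays, whereas *BGLU19* differed between the genotypes on both pairs of dark arrays.

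Under FR light without MeJA, the *hy5-1* to *Ler* ratios were 0.12 for *BGLU28*, -0.23 for *BGLU19* and 0.59 for *BGLU47*, and 0 of the 3 genes reached 2-fold, beside 16.0% of probe sets in either direction. With MeJA under FR light, *BGLU28* was 2.50-fold higher in *hy5-1* (1.32) and *BGLU47* 2.01-fold higher (1.01), 2 genes called up beside 8.92% of probe sets, and *BGLU19* had a ratio of -0.58. The value of *BGLU47* fell just under 2-fold after median scaling (0.99). In the same limma model over the FR arrays, the mean log2 difference of *hy5-1* from *Ler* was 0.80 for *BGLU47* (standard error 0.23, adjusted p = 0.82), 0.72 for *BGLU28* (standard error 0.42, adjusted p = 0.84) and -0.41 for *BGLU19* (standard error 0.22, adjusted p = 0.84), each with the same sign in 2 of 2 pairs. Again 0 of 22746 probe sets (0%) passed in limma, with 1365 at an unadjusted p under 0.05.

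The 3 genes did not share 1 pattern. Across the 4 dark arrays, Pearson's r was -0.97 between *BGLU28* and *BGLU47*, -0.67 between *BGLU28* and *BGLU19*, and 0.75 between *BGLU19* and *BGLU47*. Across the 4 FR arrays it was 0.97, -0.99 and -0.99 for the same pairs. *BGLU47* therefore moved against *BGLU28* in darkness and with it under FR light, and *BGLU19* the reverse with *BGLU47*. These correlations rest on 4 arrays each, which the genes share, and are descriptions. The signs of the dark ones follow in part from the choice. The study lists *BGLU28* as raised by MeJA in darkness, and *BGLU19* and *BGLU47* as lowered. Between the lights, the MeJA ratio of *BGLU28* in *Ler* turned from 2.75 in darkness to -2.12 in FR light, and that of *BGLU19* in *Ler* from -2.50 to 1.07, 2 of 3 genes called both ways beside 3.95% of all probe sets. In *hy5-1* the ratio of *BGLU47* turned from 2.97 to -1.04, 1 gene beside 3.70%, whereas *BGLU28* stayed below 0 and *BGLU19* above 0. The dark ratios in these pairs are those that chose the genes.

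**Figure D3:**
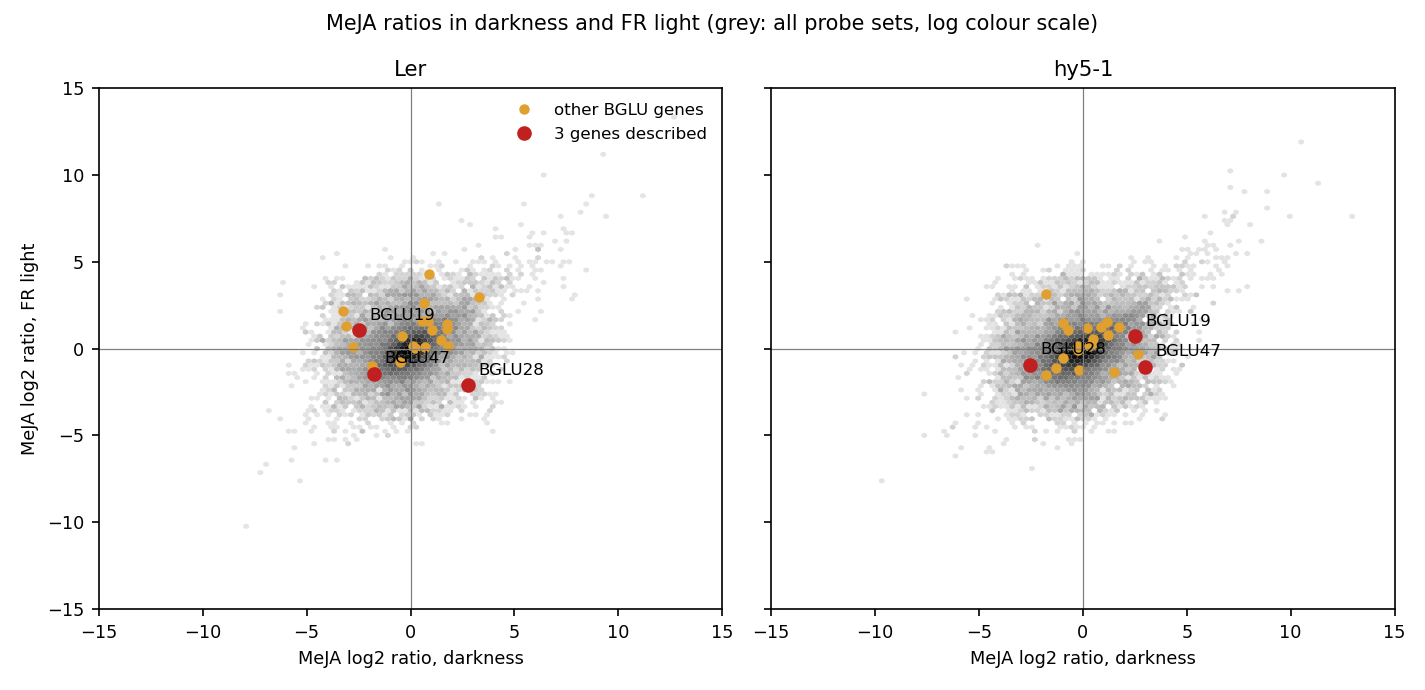
MeJA log2 ratios in darkness (horizontal) and in FR light (vertical) for *Ler* (left) and *hy5-1* (right); grey shading is the number of all 22746 probe sets on a log colour scale, orange points are other *BGLU* genes and red points the 3 genes. In *Ler*, *BGLU28* lies at 2.75 and -2.12 and *BGLU19* at -2.50 and 1.07, in the quadrants of opposite sign.

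The β-glucosidase (*BGLU*) family comprises 47 genes in RefSeq names, of which 22 had a probe set of their own in the annotation used, the 3 genes and 19 others. The rest may have probe sets among those that it does not list. Another probe set is shared by *BGLU21* and *BGLU22* and was left out. MeJA ratios of at least 2-fold in either direction were found for 10 of the 19 other genes in dark *Ler* (52.6%, beside 24.3% of all probe sets), 8 in dark *hy5-1* (42.1%, beside 28.3%), 11 in FR-grown *Ler* (57.9%, beside 24.0%) and 11 in FR-grown *hy5-1* (57.9%, beside 24.6%). In dark *Ler*, 6 were up and 4 down, beside 11.2% and 13.1% of all probe sets. In dark *hy5-1*, 5 were up and 3 down, beside 12.2% and 16.1%. In FR-grown *Ler*, 10 were up and 1 down, beside 12.8% and 11.2%, and in FR-grown *hy5-1*, 7 were up and 4 down, beside 11.2% and 13.4%. The counts under FR light rested on ratios near the limit. At 3-fold, 6 of the 22 family genes, *BGLU28* among them, were called in FR-grown *Ler* (beside 14.0% of probe sets) and 1, *BGLU27*, in FR-grown *hy5-1* (beside 13.5%). For *hy5-1* against *Ler* the counts were 5 of 19 in darkness (beside 17.3%), 5 in MeJA-treated dark seedlings (beside 17.1%), 2 in untreated FR-grown seedlings (beside 16.0%, but 4 beside 16.6% after quantile normalization) and 5 in those given MeJA (beside 18.0%). The median MeJA ratio of the 19 genes was 0.64 in dark *Ler*, 0.21 in dark *hy5-1*, 1.05 in FR-grown *Ler* and 0.27 in FR-grown *hy5-1*, against -0.06, -0.08, -0.06 and -0.09 over all probe sets.

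Several of these genes responded to MeJA alike in all 4 combinations of genotype and light. The 3 genes could not, since they were chosen for opposite signs in dark *Ler* and dark *hy5-1*. Other family genes, such as *BGLU31* and *BGLU43*, also changed sign among the 4. *BGLU16* was higher with MeJA at log2 ratios of 1.75 in dark *Ler*, 1.75 in dark *hy5-1*, 1.12 in FR-grown *Ler* and 1.22 in FR-grown *hy5-1*. *BGLU25* had 1.03, 1.17, 1.05 and 1.55 in the same order, and *BGLU46*, a monolignol glucosidase gene and a relative of *BGLU47*, had 1.75, 1.19, 1.42 and 0.79. *BGLU40* was lower in all 4, at -1.87, -1.80, -1.03 and -1.53. At 2-fold, 2 of the 19 genes were thus up in all 4 ratios, beside 2.42% of all probe sets, and 1 was down, beside 1.49%. A limma model with a block for each of the 4 pairs called 3 of the 19 up, beside 2.70% of probe sets, and 1 down, beside 1.68%. The mean log2 differences were 1.46 for *BGLU16* (standard error 0.18, adjusted p = 0.029), 1.20 for *BGLU25* (standard error 0.16, adjusted p = 0.032), 1.29 for *BGLU46* (standard error 0.21, adjusted p = 0.047) and -1.56 for *BGLU40* (standard error 0.20, adjusted p = 0.030), each with the same sign in 4 of 4 pairs. With any 1 of the 4 pairs left out, the limma adjusted p of these 4 genes lay between 0.077 and 0.16, and none was called. With robust moderation the limma adjusted p of *BGLU46* was 0.052, which ended its call. For the 3 genes the same model has no independent meaning, since the dark ratios chose them. Their 4 ratios averaged -0.71 for *BGLU28*, 0.45 for *BGLU19* and -0.32 for *BGLU47*.

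**Figure D4:**
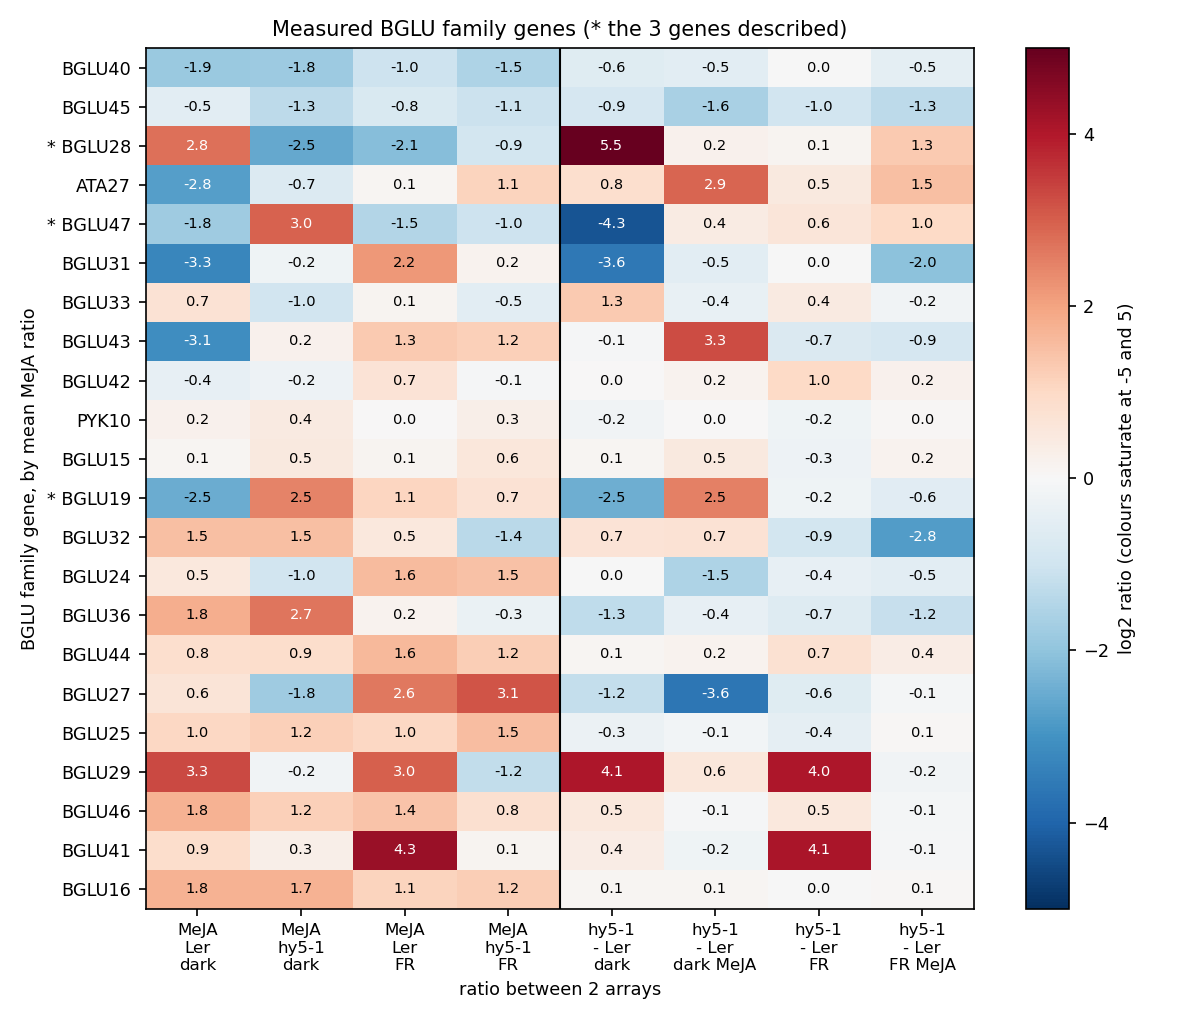
Log2 ratios of the 22 *BGLU* family genes with a probe set of their own (rows, ordered by mean MeJA ratio) in the 4 MeJA and 4 *hy5-1* minus *Ler* comparisons (columns), with red for higher and blue for lower; asterisks mark the 3 genes. *BGLU16* and *BGLU25* are red and *BGLU40* is blue in all 4 MeJA columns. Each of the 3 genes changes colour among them, which their choice on the dark ratios fixed, and so do others such as *BGLU31*.

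In darkness, each relative of *BGLU47* and *BGLU19* named here differed in sign from that gene in a MeJA ratio, and these ratios chose the genes. Under FR light, *BGLU45* and the relatives of *BGLU19* had the signs of their gene in both genotypes, and *BGLU46* did not. *BGLU47* is grouped with *BGLU45* and *BGLU46*, and each of these kept 1 sign with MeJA. *BGLU46* was higher in all 4 combinations, as above, and *BGLU45* had ratios of -0.52 in dark *Ler*, -1.29 in dark *hy5-1*, -0.75 in FR-grown *Ler* and -1.09 in FR-grown *hy5-1*. Between the genotypes *BGLU45* was lower in *hy5-1* on all 4 pairs, from -0.85 to -1.62, whereas *BGLU47* was lower on 1 pair and higher on 3. Of the group of *BGLU19*, *BGLU25* was higher with MeJA throughout, and *PYK10*, the main ER body enzyme of seedlings and roots, had 8 ratios between -0.22 and 0.43. *BGLU24*, of the same group, had MeJA ratios of 0.53 in dark *Ler*, -0.97 in dark *hy5-1*, 1.58 in FR-grown *Ler* and 1.47 in FR-grown *hy5-1*. Its signs were those of *BGLU19* under FR light and opposite in darkness. The probe set shared by *BGLU21* and *BGLU22*, also of this group, had 1.17, 1.50, 1.25 and 0.96 in the same order. The anther gene *ATA27* (*BGLU20*), of the same group, had MeJA ratios of -2.77 in dark *Ler* and -0.70 in dark *hy5-1*, but 0.11 and 1.10 under FR light. It shared with *BGLU19* the low ratio in dark *Ler* and, at 2.91, the high value of *hy5-1* over *Ler* in darkness with MeJA.

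In size, the ratios of the 3 genes were exceeded by other family genes in most comparisons. Their places in darkness follow in part from their choice on the dark arrays. The lowest with MeJA in dark *Ler* was *BGLU31* at -3.27, below *BGLU19*, and the highest was *BGLU29* at 3.31, above *BGLU28*. In dark *hy5-1* the 3 genes held the lowest and the highest place, *BGLU28* at -2.54 and *BGLU47* at 2.97, with *BGLU40* (-1.80) and *BGLU36* (2.66) next. Under FR light *BGLU41* reached 4.32 in *Ler*, where its untreated array stood low at -4.17, and *BGLU27* reached 3.13 in *hy5-1*, both far above *BGLU19*. *BGLU28* at -2.12 and *BGLU47* at -1.45 were the lowest 2 of the family in FR-grown *Ler*, and *BGLU40* at -1.03 was the only other gene there below -1. In *hy5-1* against *Ler* in untreated darkness, *BGLU28* (5.52) and *BGLU47* (-4.31) lay outside the range of the 19 others, which ran from -3.58 for *BGLU31* to 4.06 for *BGLU29*. With MeJA in darkness that range was -3.61 for *BGLU27* to 3.26 for *BGLU43*, and all 3 genes lay inside it. They also lay inside it under FR light, from -0.97 for *BGLU45* to 4.10 for *BGLU41* without MeJA and from -2.78 for *BGLU32* to 1.49 for *ATA27* with MeJA.

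In the order of loci in RefSeq's TAIR10.1 assembly, *BGLU28* lies in a row of 5 family genes, between *BGLU15* and *BGLU29*, with *BGLU17* and the defense myrosinase gene *PEN2* (*BGLU26*) next to them and not analysed here. *BGLU29* had dark values of -3.59 in untreated *Ler*, 0.47 in untreated *hy5-1*, -0.28 in *Ler* with MeJA and 0.28 in *hy5-1* with MeJA. As for *BGLU28*, the untreated *Ler* array was the lowest and the genotypes lay close together with MeJA. The *hy5-1* to *Ler* ratio of *BGLU29* was 4.06 in untreated darkness and 4.03 under FR light without MeJA, but 0.56 and -0.19 with MeJA. Thus the large difference between the genotypes that *BGLU28* showed in darkness was present in *BGLU29* in both lights. *BGLU29* was also the 1 of the 19 genes called in opposite directions by MeJA under FR light, at 2.97 in *Ler* and -1.25 in *hy5-1*, and none of the 19 was so called in darkness. Both counts are near the shares of all probe sets, 3.58% and 3.54%. *BGLU15*, which encodes a flavonol glucosidase and lies on the other side of *BGLU28*, stayed between -0.26 and 0.58 in all 8 ratios. Among the genes within 3 loci of *BGLU19*, AT3G21380 was noticed after its values were seen. Its MeJA ratios had the signs of those of *BGLU19* in all 4 combinations, at -1.44 in dark *Ler*, 1.22 in dark *hy5-1*, 3.38 in FR-grown *Ler* and 2.71 in FR-grown *hy5-1*. The other measured neighbours did not have these signs in all 4. In the same order, AT3G21360 had -1.09, -0.66, -1.22 and -0.12, and AT3G21390 had -0.17, 0.04, -0.40 and -0.97.

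The study lists *BGLU28* with 4 other genes of phenylpropanoid biosynthesis, and *BGLU19* and *BGLU47* with 3 genes of starch and sucrose metabolism, all chosen on the dark arrays. Under FR light these lists did not move as one. In FR-grown *Ler*, AT4G25980 (4.14) and AT1G24110 (1.04) of the first list were up-regulated by MeJA, AT5G58390 (-1.54) was down-regulated as *BGLU28* was, and AT5G64110 had a ratio of -0.62. In FR-grown *hy5-1*, none of these 5 genes reached 2-fold, beside 24.6% of all probe sets. Their ratios ran from -0.92 for *BGLU28* to 0.45 for AT5G58390. The sucrose-phosphate synthase gene *SPS4F*, the 1 other measured gene of the second list, was down-regulated in FR-grown *Ler* (-1.33) and *hy5-1* (-2.01), as *BGLU47* was, and *BGLU19* was not. None of these 5 other genes was called in the limma model over the 4 pairs. The choice favoured this, since their dark MeJA ratios were opposite in *Ler* and *hy5-1*, so it has no independent meaning.

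Lists of genes from the pathways that β-glucosidases serve were measured only in part. A gene counted as measured where the annotation paired a probe set with it alone, so an unmeasured gene may have an unlisted one. Of 22 genes of myrosinases and ER bodies, 7 were measured, and limma over the 4 pairs called 3 of them higher with MeJA and none lower, beside 2.70% and 1.68% of all probe sets. These were *NAI2*, an ER body organizer, with a mean log2 difference of 1.62 (standard error 0.20, adjusted p = 0.030), and the jacalin-related lectin genes *JAL33* at 1.22 (adjusted p = 0.023) and *JAL34* at 1.14 (adjusted p = 0.030), both lectins being named here because limma called them. *JAL23* had the largest single ratio of this list, 7.18 in FR-grown *Ler*, where its untreated array stood low at -5.84. Its MeJA ratios were 2.83 in dark *Ler*, 4.42 in dark *hy5-1* and 3.40 in FR-grown *hy5-1*, and limma did not call it (adjusted p = 0.058). Of 19 genes of lignin and monolignol glucosides, 7 were measured, and *BGLU46* was the 1 called, as up-regulated, beside 2.70% of all probe sets. *CCR2*, which encodes a cinnamoyl-CoA reductase, had the ratio farthest from 0 in that list, at -4.73 in FR-grown *Ler*, and the monolignol glucosyltransferase gene *UGT72E3* had -3.31 there. *UGT72E3* had MeJA ratios of -1.47 in dark *Ler* and 0.32 in dark *hy5-1*, and a *hy5-1* to *Ler* ratio of -1.25 in untreated darkness, and its 8 ratios had the signs of those of *BGLU47*. Of 13 genes of sulfur limitation, the condition for which *BGLU28* is known, only *SDI2* was measured, with 8 ratios between -0.20 and 0.53.

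Of 24 genes of seed storage and late embryogenesis, which are active in maturing seeds and fade in seedlings, 5 were measured. The late embryogenesis gene *M17* had MeJA ratios of -6.26 in dark *Ler*, 4.93 in dark *hy5-1*, 2.18 in FR-grown *Ler* and 3.02 in FR-grown *hy5-1*, which are the signs of *BGLU19* in all 4. The oleosin gene AT3G01570, singled out after its values were seen, had -2.86, 3.63, 2.81 and -1.10. The storage protein gene AT1G03890 ran against *BGLU19* in dark *hy5-1*, but in dark *Ler* its MeJA ratio was -0.001. Its MeJA ratio was -3.57 in dark *hy5-1*, and without MeJA it was higher in dark *hy5-1* than in *Ler* by 3.22 on the log2 scale. Both of these values use the untreated dark *hy5-1* array, which stood high. *M10*, another late embryogenesis gene, was higher with MeJA throughout, with ratios from 5.71 to 7.97, and limma over the 4 pairs called it up with a mean log2 difference of 6.85 (standard error 0.44, adjusted p = 0.0092). The 1 seed gene that limma called down was *OLEO3*, for another oil body protein, at -1.35 (adjusted p = 0.032). These calls, 1 of 5 in each direction, stand beside 2.70% and 1.68% of all probe sets. With any 1 pair of arrays left out, none of the 6 genes that limma called in these lists was called (adjusted p between 0.0505 and 0.16). Whether the seedlings of the 8 arrays were equally advanced in development was not tested.

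The genes with the most similar profiles were sought among 4827 genes with a range of at least 1 in each light, by Pearson's r over the 8 arrays. Because the values are centred within each light, r reflects only differences within a light. For *BGLU28* the nearest were AT3G50720 (r of 0.97), AT5G44980 (0.96) and AT2G06170 (0.93), and 6 genes had an r above 0.9. AT5G44980 had MeJA ratios of 1.65 in dark *Ler*, -1.91 in dark *hy5-1*, -2.94 in FR-grown *Ler* and -1.04 in FR-grown *hy5-1*. Its reversal between dark and FR-grown *Ler*, like that of *BGLU28*, was favoured by the search on these same arrays and is a description. For *BGLU19* the nearest were AT1G51290 (0.99), AT1G73700 (0.96) and AT1G30795 (0.96), of 11 genes above 0.9. AT1G51290 had MeJA ratios of -3.10, 2.77, 1.73 and 1.25 in the same order. For *BGLU47* the nearest were AT4G38870 (0.95), AT2G25500 (0.93) and AT4G10440 (0.93), of 7 genes above 0.9. The closest of them, AT4G38870, had -1.56, 2.03, -0.26 and -0.08, with little change under FR light. AT2G25500 had -1.53, 2.97, -1.69 and -2.24. No other *BGLU* gene was among these 9 genes.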

How the data were processed

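The authors summarised the ATH1 arrays with MAS5 and normalized them with GeneSpring GX, and deposited log2 values. For software versions, scaling and log base: not given in the sources used here. The base was read as 2, and other bases would give more calls at 2-fold. Of 22810 rows, 64 control probe sets were left out and 22746 analysed. Of these, 13436 belong to 1 gene by the platform annotation updated with RefSeq names, 503 to several genes and 77 to no gene in RefSeq, and 8730 were not listed. Ratios (log2 differences) were formed only within a light. Fits used limma 3.58.1 in R 4.3.3 with moderated variances, and p-values were adjusted by Benjamini-Hochberg over all 22746 probe sets; the fits were tested on simulated data. The additive FR model used 4 arrays (1 residual degree of freedom) and the paired model all 8 (3 residual degrees of freedom). Nothing says that the arrays came from separate cultures. The genes and lists were chosen with earlier results of these data known. Genes were named as the highest and lowest family member of each ratio, the 2 largest of each list, all measured genes of the study's 2 lists and the 3 nearest profiles of each gene. A planned comparison of protein and promoter sequences was not made.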

Additional observations from a re-analysis of the deposited data

Results flagged for a closer look

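Results were taken up here where a MeJA ratio was at least 2-fold in one setting and at most 0.5-fold in another. With 1 array per condition none of these differences was tested. The difference between the MeJA log2 ratios of *hy5-1* and *Ler* in darkness was -5.30 for *BGLU28*, 4.99 for *BGLU19* and 4.74 for *BGLU47*, which is how the genes were chosen. Under FR light it was -4.22 for *BGLU29*, at 2.97 in *Ler* and -1.25 in *hy5-1*.

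Between FR light and darkness in *Ler*, the MeJA log2 ratio differed by -4.87 for *BGLU28*, 3.57 for *BGLU19*, 5.45 for *BGLU31* and 4.42 for *BGLU43* (from -3.11 in darkness to 1.31). In *hy5-1* it differed by -4.00 for *BGLU47*, 4.90 for *BGLU27* (from -1.77 in darkness to 3.13) and -2.87 for *BGLU32* (from 1.52 to -1.35).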

How the results depend on the processing

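Of 48 recomputed member ratios (24 ratios under quantile normalization and median scaling), 45 kept their direction and their side of 2-fold, and 3 kept their direction and fell short of it. These were *BGLU47* with MeJA in FR-grown *hy5-1* (-0.99 after quantile normalization, -0.97 after median scaling) and *BGLU47* in *hy5-1* against *Ler* under FR light with MeJA (0.99 after median scaling). With a variance trend, which uses a mean that is no expression level in centred values, limma called 596 probe sets for MeJA under FR light in place of 0. The 3 genes were not among them, and their limma adjusted p for MeJA ranged from 0.13 to 0.34 over all settings. With 1 pair left out, the paired limma model called 0 to 34 probe sets in place of 995. At 3-fold, 39 calls over the 8 ratios and 22 family genes were left of 73, unevenly. For MeJA, 11 of 13 were left in dark *Ler* and 7 of 11 in dark *hy5-1*. Under FR light, 6 of 14 were left in *Ler* and 1 of 12 in *hy5-1*. The dark calls at 3-fold include the 3 genes, which the dark ratios chose, so the unevenness follows in part from the choice. All probe sets past 3-fold made up 14.0% in FR-grown *Ler* and 13.5% in FR-grown *hy5-1*, and were not counted in darkness. The call of *BGLU46* over the 4 pairs was lost with robust empirical Bayes (limma adjusted p = 0.052). A fit of 1 FR pair has no residual degrees of freedom and was not tested. No paired analysis by replicate number was possible because each condition has 1 array.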
